A study of Mus musculus with 4 samples.

Results

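The genes described here are 34 genes of superoxide and peroxide metabolism: the superoxide dismutases with Sod2 among them, the peroxide-removing enzymes, the thioredoxin and glutathione systems, Nrf2 with targets of it, the phagocyte NADPH oxidase and the metallothioneins. They were taken by symbol from a table of 26026 mouse genes, and all 34 were found. Polyadenylated RNA was sequenced from bone marrow-derived cells (the labels call them BMDC) grown with Flt3 ligand at 100 ng/mL, the cytokine that drives dendritic cell development. The cells were Wild-type (C57/B16) or Nfkb1-/- (C57/B16), harvested at day 3 or day 5, with 1 library for each of the 4 combinations. All groups shared the same medium, which held 2-BME, a thiol-reducing agent, and was replenished on day 3. The labels do not say how many animals gave the marrow or whether marrow was pooled. The series title names Sod2 expression and NF-kB1 deficiency as its subject. No difference given below has a replicate check.

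Superoxide arises from the mitochondrial respiratory chain and, in phagocytes, from the NADPH oxidase of the membrane. Dismutases turn it into hydrogen peroxide, which catalase breaks down directly and which glutathione peroxidases and peroxiredoxins reduce with electrons that come from NADPH through glutathione or thioredoxin. Nrf2 (gene Nfe2l2) is the transcription factor that switches on many of these enzymes once its inhibitor Keap1 is oxidised, and Sod2 is a long-known NF-kB target gene in inflammatory cells.

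Levels are RPKM, reads scaled by gene length and library size, so that they can be compared between genes. Library totals recovered from the table ran from 15255070 to 16215214 reads. Differences are log2 differences of RPKM + 1, with a size rule: past it are differences of 1 or more, and a smaller band from 0.5 is given too. A mean of 1 RPKM or more was reached by 11786 genes, and 32 of the 34 redox genes were among them, all but Sod3 and Mt2. Each ratio is followed in brackets by its 95% counting interval (Clopper-Pearson, exact) from whole reads, which covers counting error only, and PCR copies of a molecule, not marked here, would make it too narrow. The median of all genes lay at 0.13 for knockout against wild type at day 3 and at 0.01 at day 5, and became -0.02 and -0.01 with rescaling by the median ratio of libraries. A difference near 0.13 at day 3 is therefore the level of the whole table.

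Nfkb1, the targeted gene, had 74.8 (wild type) and 56.0 RPKM (knockout) on day 3, then 114 and 64.7 RPKM on day 5, so the transcript was lower, not lost, under the knockout label. The knockout libraries are named below by that label. Beside the labelled cell type, 12 markers of conventional dendritic cells summed to 2695 (wild type) and 1525 RPKM (knockout) on day 3, then 4430 and 1772 RPKM on day 5. Most of that sum came from the class II antigen presentation genes Cd74, H2-Aa and H2-Ab1, at 1333, 651 and 514 RPKM in wild type on day 3. Zbtb46, Xcr1 and Clec9a stood at 1.78, 3.00 and 7.02 RPKM there, so the sum says little of such low markers. Markers of neutrophils summed to more than these in every library, at 34961, 24825, 14317 and 3110 RPKM in the same order, so that the cultures held RNA of several cell types. Of the 13 neutrophil markers, 1 passed the size rule downward at day 3 and 12 at day 5. Of the 12 dendritic markers, 0 were lower by that rule at day 3 and 11 at day 5. None of the neutrophil, dendritic or monocyte markers stood at 1 read, the lowest value of the table, in any library. In such bulk samples fewer cells of a type and less RNA per cell cannot be told apart.

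Sod2 (NM_013671), the manganese superoxide dismutase of the mitochondrial matrix, was the redox gene with the largest genotype difference at each day. It had 23.8 (wild type) and 60.7 RPKM (knockout) on day 3, then 19.96 and 55.2 RPKM on day 5. Both knockout libraries were above both wild-type libraries, by more than the wild-type libraries differed from each other. These levels rest on 1387 and 3761 reads at day 3 and on 1230 and 3253 reads at day 5. Knockout over wild type, this gave ratios of 2.55 (2.40 to 2.71) and 2.77 (2.59 to 2.96), a log2 difference of 1.32 and 1.42. Among the 11786 genes Sod2 ranked 34 from the top by this difference at day 3 and 45 at day 5. Ranked by the smaller of its differences over the days, it was 14 from the top. Within the 34 redox genes its level was in place 21 (wild type) and 15 (knockout) from the top on day 3, then 26 and 17 on day 5. Monocyte and macrophage markers summed to more in the knockout, by ratios of 1.43 and 1.27, but the list was split. At each day 7 of 12 were above 0 and 5 below. Ly6c2, a large part of the sum, had 405 (wild type) and 829 RPKM (knockout) on day 3, then 228 and 469 RPKM on day 5. Adgre1, Mrc1, C1qa, C1qb and C1qc were lower in the knockout at both days. Single markers of that list differed by -0.71 to 1.78 at day 3 and by -1.07 to 2.95 at day 5. Marco was the highest marker at each day, followed by Ly6c2 at day 3 (1.03) and Cd14 at day 5 (1.37). The lowest were C1qa at day 3 (-0.71) and Adgre1 at day 5 (-1.07). The medians of the list were 0.38 and 0.34. The part of these markers in the Sod2 value was not tested.

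Sod1 (NM_011434), the copper and zinc enzyme of the cytosol, had 238 (wild type) and 221 RPKM (knockout) on day 3, then 318 and 315 RPKM on day 5. Its levels sorted by day more than by genotype, with log2 differences of -0.11 and -0.01 between genotypes. The ratios were 0.928 (0.876 to 0.984) and 0.992 (0.944 to 1.04). At day 3 the difference was -0.28 under the median ratio rescaling and -0.19 with equal sums. The day 5 difference was positive when libraries were rescaled to the same sum of RPKM. Sod1 was thus the more abundant dismutase transcript throughout, but its level relative to Sod2 per length differed by genotype: 10.02 (wild type) and 3.65 times (knockout) that of Sod2 on day 3, then 15.9 and 5.71 times on day 5. Sod3, the secreted dismutase, was at the lowest value in both day 3 libraries (1 read each) and had 4 reads in wild type and 5 in the knockout at day 5. Its genotype difference could not be placed at this depth.

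The bases before the RefSeq start of these dismutase genes are shown because Sod2 is the member with the largest difference and Sod1, of the same function, had a far smaller one. The 250 bases come from RefSeq on GRCm38.p6, while the deposited values were made on mm9, and were matched by symbol. Capitals in Sod2 (chr17:13007589-13007838, plus strand) mark the match to the kappa B consensus, the binding motif of NF-kB, and in Sod1 (chr16:90220512-90220761, plus strand) the match to the antioxidant response element TGACNNNGC, the motif of Nrf2, searched on both strands and lying on the minus strand there.
Sod2: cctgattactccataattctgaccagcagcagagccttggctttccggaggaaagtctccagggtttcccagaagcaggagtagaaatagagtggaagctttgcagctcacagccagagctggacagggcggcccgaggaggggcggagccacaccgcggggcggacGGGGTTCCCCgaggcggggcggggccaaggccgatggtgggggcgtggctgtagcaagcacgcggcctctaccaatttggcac
Sod1: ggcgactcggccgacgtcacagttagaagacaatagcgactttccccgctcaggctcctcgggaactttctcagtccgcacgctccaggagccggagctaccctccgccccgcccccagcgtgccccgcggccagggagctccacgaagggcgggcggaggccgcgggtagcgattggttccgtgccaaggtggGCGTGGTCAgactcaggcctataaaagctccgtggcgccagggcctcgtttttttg
The Sod2 match, GGGGTTCCCC, meets the consensus on both strands and lies at -83 to -74 from the start. A kappa B match was held by 3.9% of the 32851 promoter windows of this length, and among the redox genes by Sod2 and Prdx1, of the 28 that had an entry. No antioxidant response element was found in the Sod2 window, against a share of 10.2% of all windows. The GC box GGGCGG, the motif of Sp1, was found at 4 places in each of the Sod1 and Sod2 windows, and also in that of Txn1. At least 1 was held by 25 of the 34 windows of redox genes and by 32.7% of all windows. A match describes letters only, and binding was not measured here.

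**Figure D1:**
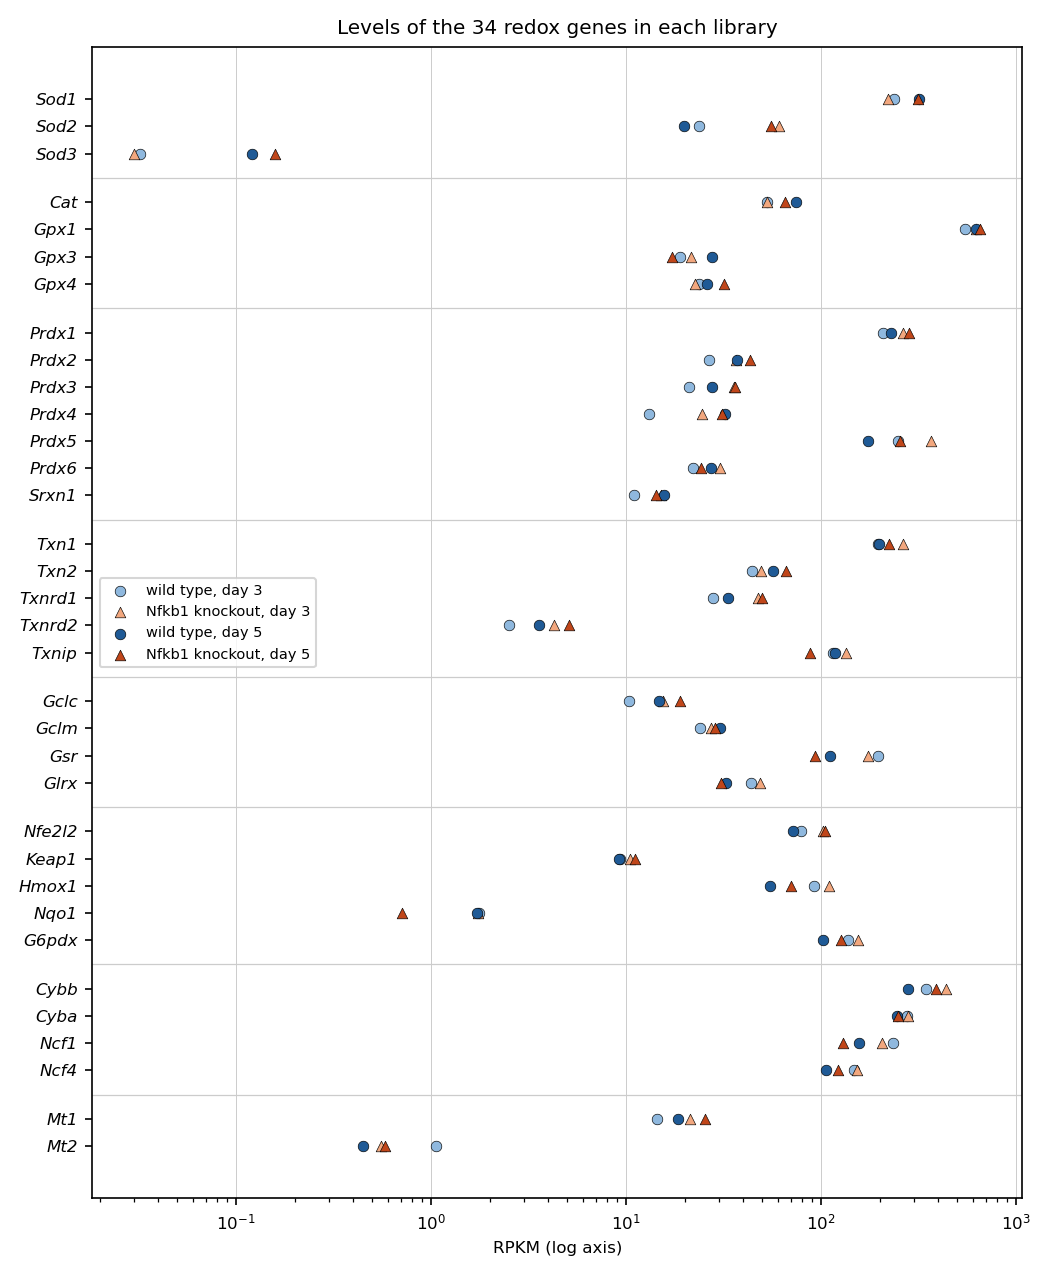
RPKM (log axis) of each of the 34 redox genes in the 4 libraries, grouped by role, with circles for wild type, triangles for the Nfkb1 knockout, pale for day 3 and dark for day 5. The Sod2 triangles sit at 60.7 and 55.2 RPKM, apart from the circles at 23.8 and 19.96 RPKM, while Gpx1 tops every library at 550 to 656 RPKM.

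Across the 32 measured redox genes, Sod2 alone passed the size rule between genotypes, upward at each day, and 0 passed it downward. The shares of all genes were 0.976% (higher) and 0.882% (lower) on day 3, then 1.16% and 3.22% on day 5, so 1 of 32 lies near that background. In the smaller band of at least 0.5, 8 genes were higher in the knockout at day 3 (25% of 32, against 10.8% of all genes) and 0 lower (4.43% of all genes). These were Sod2, Prdx4, Txnrd1, Prdx3, Txnrd2, Prdx5, Gclc and Mt1. With libraries rescaled by their median ratio 4 of the 32 were in that band at day 3, and with libraries rescaled to the same sum 5 were. The day 3 median of all genes also fell, from 0.13 to -0.02 and 0.05. Shares of all genes by size, sign or overlap were taken without rescaling only. The rescaled counts of redox genes, here and below, therefore cannot be set against those shares. At day 5, 4 genes were higher by at least 0.5 (12.5%, against 8.54% of all genes) and 2 were lower (6.25%, against 11.5%). The higher genes were Sod2, Txnrd1, Nfe2l2 and Prdx5, and the lower ones Gpx3 and Nqo1.

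The median of the 32 genes was 0.24 at day 3 beside 0.13 for all genes, and 0.21 at day 5 beside 0.01. At day 3 it came to 0.071 under the median ratio rescaling, beside -0.02 for all genes. Sod2, Prdx5 and Txnrd1 were higher by at least 0.5 at both days, 9.38% of the redox genes against 3.88% of all genes, while 0 were lower by that much at both days (2.5% of all genes). Under either rescaling the count was 2, Sod2 and Txnrd1, and Prdx5 had a day 3 difference of 0.38 (median ratio) or 0.46 (equal sums). In 12 of the 32 both knockout libraries lay above both wild-type libraries, 37.5% against 27.4% of all genes, and in 0 both lay below (13.2% of all genes). The 12 were Sod2, Prdx1, Prdx3, Prdx5, Txn1, Txnrd1, Txnrd2, Gclc, Nfe2l2, Keap1, Cybb and Mt1. After rescaling by the median ratio 9 of the 32 were separated in this way, and with equal sums 12, with 1 gene below.

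**Figure D2:**
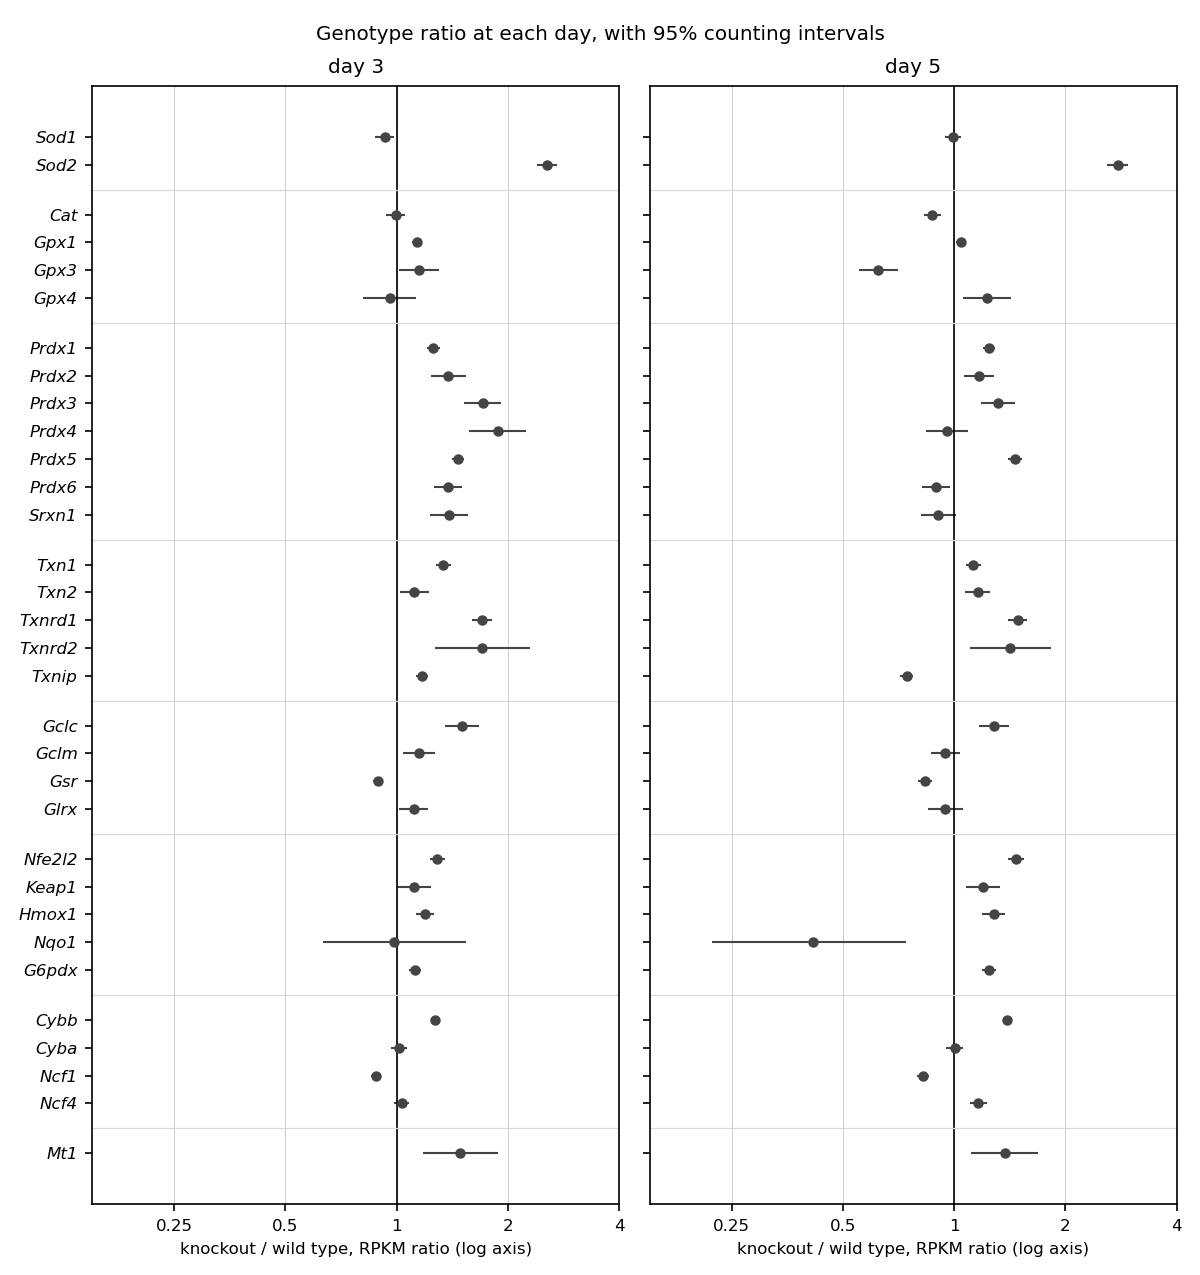
Ratio of RPKM in the Nfkb1 knockout to wild type (log axis) at day 3 (left) and day 5 (right) for the 32 measured redox genes, with bars for the exact 95% counting interval. Sod2 stands alone beyond 2, at 2.55 and 2.77, and the peroxiredoxins lie to the right of 1 at day 3 but on both sides of it at day 5.

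The peroxiredoxins, abundant thiol peroxidases that take their electrons from thioredoxin or glutathione, were all on the higher side in the knockout at day 3. All 6 of them and sulfiredoxin (Srxn1), which repairs over-oxidised peroxiredoxins, had a difference above 0 at day 3 under each scaling, with a median of 0.45 and a range of 0.33 to 0.86, where 66.6% of all genes were above 0 and 33.4% below. At day 5 the 7 genes had a median of 0.22, with 4 above 0 and 3 below (51.2% and 48.8% of all genes). Prdx4, the enzyme of the endoplasmic reticulum, had 13.1 (wild type) and 24.7 RPKM (knockout) on day 3, then 32.3 and 30.96 RPKM on day 5. Wild type at day 3 was the low library, and the other 3 lay between 24.7 and 32.3 RPKM. These are ratios of 1.88 (1.57 to 2.25) and 0.958 (0.841 to 1.09).

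Prdx3, the mitochondrial peroxiredoxin that shares the matrix with Sod2, had 21.1 (wild type) and 36.0 RPKM (knockout) on day 3, then 27.7 and 36.4 RPKM on day 5. Its knockout libraries were nearly level and above both wild-type libraries, with ratios of 1.71 (1.52 to 1.92) and 1.31 (1.18 to 1.46). Prdx5, found in mitochondria, peroxisomes and the cytosol, had 249 (wild type) and 366 RPKM (knockout) on day 3, then 174 and 254 RPKM on day 5. The ratios were 1.47 (1.41 to 1.52) and 1.46 (1.40 to 1.53), on a level that was lower at day 5 in each genotype. Prdx1, a cytosolic peroxiredoxin and the most abundant of the family beside Prdx5, had 209 (wild type) and 263 RPKM (knockout) on day 3, then 229 and 284 RPKM on day 5, a ratio of 1.26 (1.21 to 1.31) and 1.24 (1.20 to 1.29). Prdx2, its cytosolic relative that is prominent in red cells, had 26.5 (wild type) and 36.6 RPKM (knockout) on day 3, then 37.2 and 43.5 RPKM on day 5, a difference of 0.45 and 0.22.

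Beside Prdx2, the summed level of 12 erythroid markers was 522 (wild type) and 111 RPKM (knockout) on day 3, then 27.2 and 10.1 RPKM on day 5, with 6 of the 7 measured lower by the size rule at day 3 and 0 higher. The list holds globin rows with nearly equal values, which may count the same RNA more than once. Examples on day 3 are Hbb-b1 (203 RPKM in wild type and 43.1 in the knockout) and Hbb-bs (199 and 42.6 RPKM). The part of these markers in the Prdx2 value was not tested. Prdx6, which also has phospholipase activity, differed by 0.44 at day 3 and -0.16 at day 5, and Srxn1 by 0.44 and -0.13. Both were lowest in wild type at day 3, at 22.0 RPKM for Prdx6 and 10.96 RPKM for Srxn1.

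The Prdx1 window is shown as the other one with a kappa B match. Capitals in chr4:116685349-116685598 (GRCm38.p6, plus strand) mark the kappa B match on the minus strand, at -170 to -161, and the antioxidant response element on the minus strand, at -133 to -125, which also holds a match to the AP-1 motif TGANTCA.
Prdx1: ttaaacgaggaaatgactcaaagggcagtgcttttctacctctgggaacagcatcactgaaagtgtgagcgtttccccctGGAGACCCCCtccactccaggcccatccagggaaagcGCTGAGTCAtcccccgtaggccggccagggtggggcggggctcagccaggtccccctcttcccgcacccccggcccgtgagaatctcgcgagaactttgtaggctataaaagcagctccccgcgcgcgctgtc
The AP-1 motif was present in 6.75% of all windows. A kappa B match was held by 2 of the 34 windows of redox genes, those of Sod2 and Prdx1, against 3.9% of all windows. Whether a match bears on the level of a gene was not tested.

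In the thioredoxin system, which hands electrons from NADPH to peroxiredoxins and other oxidised proteins, the reductases had the largest values. Txnrd1, the cytosolic selenoprotein reductase, had 27.9 (wild type) and 47.5 RPKM (knockout) on day 3, then 33.5 and 49.8 RPKM on day 5. Its groups did not overlap, with ratios of 1.70 (1.596 to 1.82) and 1.49 (1.40 to 1.58). Txnrd2, the mitochondrial reductase, was low, at 2.51 and 4.27 RPKM at day 3 and 3.58 and 5.08 RPKM at day 5. The ratios were 1.70 (1.27 to 2.30) and 1.42 (1.10 to 1.83), on 73 to 149 reads a library, so their size is loosely placed even for counting error.

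Txn1, cytosolic thioredoxin, had 196 (wild type) and 263 RPKM (knockout) on day 3, then 199 and 225 RPKM on day 5, and differed by 0.42 and 0.17. Txn2, mitochondrial thioredoxin, ranged from 44.3 to 65.95 RPKM and differed by 0.16 at day 3, which turned negative under the median ratio rescaling, and by 0.21 at day 5. Txnip, which binds and inhibits thioredoxin and is also a glucose-responsive gene, had 115 (wild type) and 135 RPKM (knockout) on day 3, then 118 and 88.0 RPKM on day 5. The knockout was thus the highest library at day 3 and the lowest at day 5, with ratios of 1.17 (1.13 to 1.21) and 0.744 (0.713 to 0.775).

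The Txnrd1 window with an antioxidant response element is shown because Txnrd1 and Sod2 were higher by at least 0.5 at both days under each scaling and the windows differ in their motifs. Txnrd1 has 3 RefSeq starts, and capitals in chr10:82858956-82859205 (GRCm38.p6, plus strand) mark the element, which lies on the minus strand at -92 to -84. The windows of the other starts held none.
Txnrd1: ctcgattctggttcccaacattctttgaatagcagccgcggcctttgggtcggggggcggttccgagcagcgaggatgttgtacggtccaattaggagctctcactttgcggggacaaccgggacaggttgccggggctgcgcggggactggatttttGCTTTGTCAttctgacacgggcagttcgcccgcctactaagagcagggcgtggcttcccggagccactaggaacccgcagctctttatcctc
An antioxidant response element was held by 7 of the 34 windows of redox genes, against 10.2% of all windows, in 7 of the 28 genes with an entry: Sod1, Prdx1, Txnrd1, Gclm, Nfe2l2, G6pdx and Mt2. Among the 6 of these with a mean of at least 1 RPKM the day 3 difference ran from -0.11 for Sod1 to 0.75 for Txnrd1, with Gclm at 0.19 and G6pdx at 0.17 (negative under the median ratio rescaling).

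**Figure D3:**
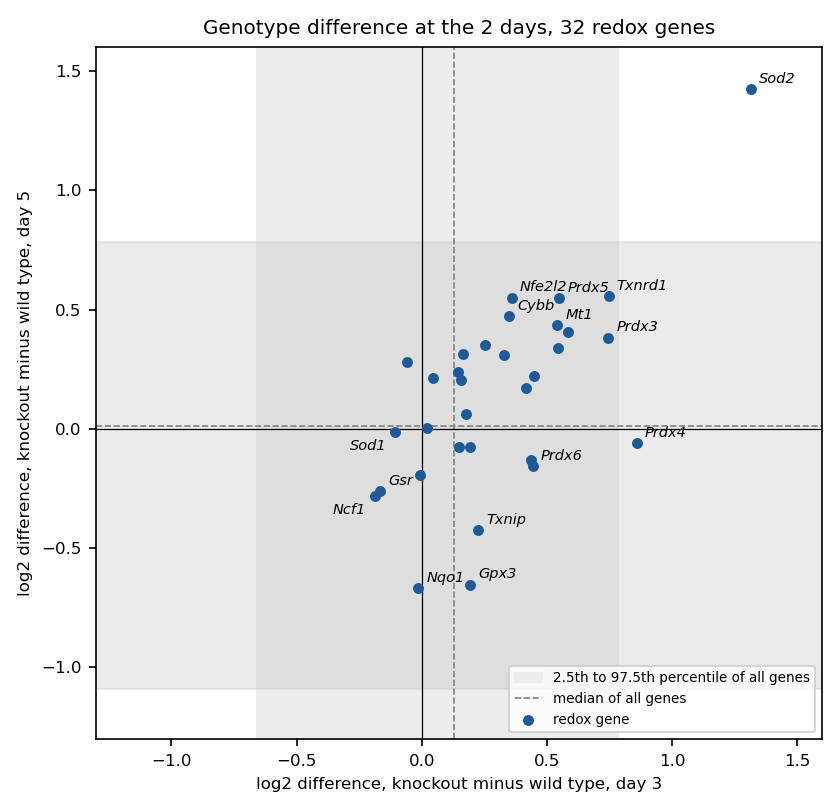
Log2 difference of RPKM + 1, knockout minus wild type, at day 3 (x axis) and day 5 (y axis) for 32 redox genes, with grey bands over the middle 95% of all genes and dashed lines at their medians (0.13 and 0.01). Sod2, at 1.32 and 1.42, lies outside both bands, Prdx4 (0.86) lies outside the day 3 band, and the other 30 lie inside both.

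Catalase and the glutathione peroxidases differed little between genotypes at day 3, by -0.06 to 0.19. Cat, the peroxisomal catalase, had 53.1 (wild type) and 52.8 RPKM (knockout) on day 3, then 74.6 and 65.1 RPKM on day 5. The genotypes were level at day 3 and the ratio at day 5 was 0.873 (0.828 to 0.920). Gpx1, the main intracellular glutathione peroxidase, had the highest level of all 34 genes in each library, at 550 and 623 RPKM at day 3 and 628 and 656 RPKM at day 5. It differed by 0.18 and 0.06.

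Gpx3, the secreted peroxidase of plasma, had 18.8 (wild type) and 21.7 RPKM (knockout) on day 3, then 27.6 and 17.2 RPKM on day 5. Wild type at day 5 was the high library and the knockout of that day the low one, a ratio of 0.623 (0.551 to 0.703) beside 1.15 (1.02 to 1.30) at day 3. Gpx4, which reduces lipid peroxides in membranes, stood at 23.7, 22.7, 25.98 and 31.8 RPKM in the order wild type and knockout at day 3, wild type and knockout at day 5. Its difference was -0.06 at day 3 and 0.28 at day 5. Reads of Gpx4, Prdx1, Txn1 and other genes with processed pseudogenes may be split with those copies, since how the authors treated reads with several matches is not given in the sources used here.

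Among the glutathione genes the synthesis and recycling enzymes went different ways. Gclc, the catalytic subunit of the enzyme that limits glutathione synthesis, had 10.3 (wild type) and 15.5 RPKM (knockout) on day 3, then 14.7 and 18.9 RPKM on day 5, with ratios of 1.502 (1.35 to 1.67) and 1.28 (1.17 to 1.40). Its row carries a non-coding RefSeq accession (NR_151778). Gclm, the modifier subunit, ranged from 23.9 to 30.4 RPKM and differed by 0.19 and -0.08, and Glrx, a glutaredoxin that removes glutathione from proteins, by 0.15 (negative under the median ratio rescaling) and -0.08.

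Gsr, the reductase that regenerates glutathione from its oxidised form, was lower in the knockout at each day, at 196 against 175 RPKM and at 112 against 93.1 RPKM, with ratios of 0.891 (0.863 to 0.919) and 0.833 (0.799 to 0.870). It was one of 5 redox genes below 0 at both days, with Sod1, Cat, Nqo1 and Ncf1, while 19 were above 0 at both. These are 15.6% and 59.4% of the 32, against 23.3% and 41.2% of all genes. The counts became 7 and 14 under the median ratio rescaling and 4 and 17 with equal sums. At day 5, 12 of the 13 neutrophil markers were also lower in the knockout, past the size rule, and their part in the Gsr value was not tested.

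Nfe2l2, the gene of Nrf2, had 79.3 (wild type) and 102 RPKM (knockout) on day 3, then 71.6 and 105 RPKM on day 5. Both knockout libraries lay above both wild-type libraries, with ratios of 1.29 (1.23 to 1.35) and 1.47 (1.40 to 1.54). Keap1, which holds Nrf2 for degradation, was near 10 RPKM throughout and differed by 0.14 (negative under the median ratio rescaling) and 0.24. Hmox1, the haem oxygenase and a classical Nrf2 target, had 92.4 (wild type) and 110 RPKM (knockout) on day 3, then 54.9 and 70.3 RPKM on day 5, a difference of 0.25 and 0.35. G6pdx, which supplies NADPH from glucose 6-phosphate, ranged from 102 to 155 RPKM and differed by 0.17 and 0.31.

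Nqo1, the quinone reductase most often used as a readout of Nrf2, was barely present and did not share the direction of Hmox1. It had 1.77 (wild type) and 1.75 RPKM (knockout) on day 3, then 1.72 and 0.711 RPKM on day 5, on 42, 44, 43 and 17 reads. The knockout at day 5 was the low library, with a ratio of 0.414 (0.221 to 0.741) beside 0.986 (0.631 to 1.54) at day 3. On the log2 scale of RPKM + 1 the day 5 value was -0.67, since the added 1 RPKM understates the change of a gene this low.

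The NADPH oxidase makes superoxide rather than removing it. Cybb, its catalytic membrane subunit, had 346 (wild type) and 441 RPKM (knockout) on day 3, then 281 and 390 RPKM on day 5, below Gpx1 alone among the redox genes in 3 of the 4 libraries. Its knockout libraries lay above both wild-type libraries, with ratios of 1.27 (1.25 to 1.29) and 1.39 (1.36 to 1.41). Cyba, the partner of Cybb in the membrane, had 277 (wild type) and 281 RPKM (knockout) on day 3, then 247 and 248 RPKM on day 5. Its difference of 0.02 at day 3 turned negative under both rescalings and that of 0.003 at day 5 under the median ratio rescaling.

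Ncf1, the cytosolic organiser of the complex, had 233 (wild type) and 205 RPKM (knockout) on day 3, then 158 and 130 RPKM on day 5. It was the lower one in the knockout at each day, with ratios of 0.877 (0.852 to 0.903) and 0.822 (0.794 to 0.852). Ncf4, another cytosolic subunit, had 148 (wild type) and 153 RPKM (knockout) on day 3, then 106 and 123 RPKM on day 5. It differed by 0.05 (negative under both rescalings) and 0.21. The subunits therefore did not keep their proportions: the level of Cybb was 1.48 (wild type) and 2.15 times (knockout) that of Ncf1 on day 3, then 1.78 and 3.00 times on day 5.

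All 4 of these subunits are made by neutrophils and by monocytes and macrophages. The summed neutrophil markers in the knockout were 0.71 times the wild-type level at day 3 and 0.217 times at day 5, a far larger difference than that of Ncf1. The 12 monocyte and macrophage markers summed to 1461 (wild type) and 2088 RPKM (knockout) on day 3, then 1499 and 1907 RPKM on day 5. By the size rule 2 were higher and 0 lower at day 3, and 4 higher and 1 lower at day 5. By sign the list was split, with 7 above 0 and 5 below at each day. Markers of neutrophil precursors summed to 682, 937, 387 and 428 RPKM in the same order. The part of these cell types in the oxidase values was not tested.

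**Figure D4:**
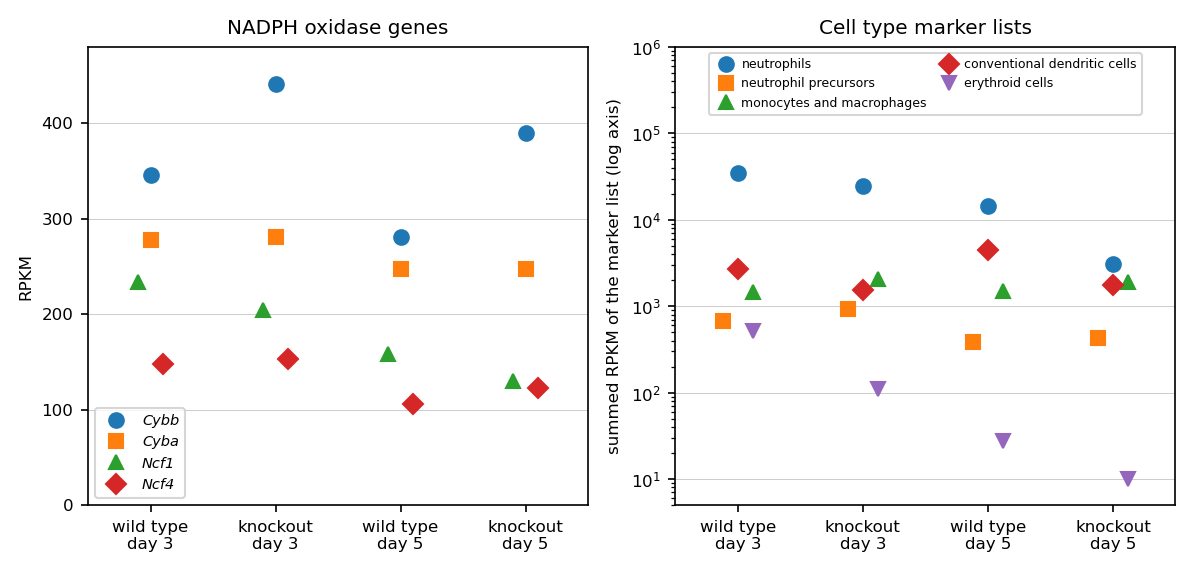
Left, RPKM of the NADPH oxidase genes Cybb, Cyba, Ncf1 and Ncf4 in each library; right, summed RPKM (log axis) of the marker lists of 5 cell types in the same libraries, points set slightly apart sideways for legibility. Cybb is higher in each knockout library than in wild type of the same day while Ncf1 is lower, and the neutrophil sum is lowest, 3110 RPKM, in the knockout at day 5.

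The metallothioneins, small cysteine-rich proteins that bind zinc and copper, were represented almost wholly by Mt1. Mt1 had 14.4 (wild type) and 21.4 RPKM (knockout) on day 3, then 18.5 and 25.4 RPKM on day 5. Both knockout libraries lay above both wild-type libraries, with ratios of 1.49 (1.18 to 1.89) and 1.37 (1.11 to 1.69) on 119 to 212 reads. Mt2, its neighbour gene, had 9, 5, 4 and 5 reads in wild type and knockout at day 3 and wild type and knockout at day 5. No genotype difference of Mt2 was detectable at this depth, with ratios of 0.523 (0.138 to 1.74) and 1.31 (0.282 to 6.59).

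Between day 3 and day 5, Prdx4 in wild type was the only one of the 32 genes past the size rule in either genotype, higher at day 5 by 1.24, a ratio of 2.46 (2.08 to 2.92). Among all genes that rule held for 1.8% upward and 2.05% downward (wild type), then 0.594% and 3.01% (knockout). In the smaller band 4 redox genes were lower at day 5 in wild type (12.5%, against 6.7% of all genes) and 7 in the knockout (21.9%, against 9.15%), while 2 (6.25%, against 13%) and 1 (3.12%, against 4.96%) were higher. Under the median ratio rescaling 7 redox genes were lower in each genotype, so the contrast of 4 with 7 did not hold, and 1 and 0 were higher; with libraries of equal sum 5 and 6 were lower and 1 and 2 higher. Without rescaling, the lower ones in wild type were Gsr, Hmox1, Ncf1 and Prdx5. In the knockout these were Gsr, Nqo1, Ncf1, Glrx, Hmox1, Txnip and Prdx5. Above 0 were 19 of the 32 in wild type and 13 below (69.3% and 30.7% of all genes), and 16 each in the knockout (56.1% and 43.9%). The median of the 32 was 0.13 (wild type) beside 0.16 for all genes, and -0.04 (knockout) beside 0.04. Under the median ratio rescaling the wild-type median became -0.039, beside 0.009 for all genes.

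Gsr had the lowest difference between the days in each genotype, at -0.81 (wild type) and -0.90 (knockout), with ratios of 0.569 (0.549 to 0.590) and 0.532 (0.512 to 0.553). Hmox1 differed by -0.74 and -0.64 and Ncf1 by -0.56 and -0.65, and all 4 oxidase genes were below 0 in each genotype. Neutrophil markers, in these same comparisons, summed to 0.41 (wild type) and 0.125 times (knockout) their day 3 level, and their part in the Gsr and oxidase values was not tested. Sod1 differed by 0.41 and 0.51, Cat by 0.48 and 0.30 and Txn2 by 0.36 and 0.41, higher at day 5 in each genotype and under each scaling. Sod2 was slightly lower at day 5, with differences of -0.24 (wild type) and -0.13 (knockout), small beside its genotype difference.

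**Figure D5:**
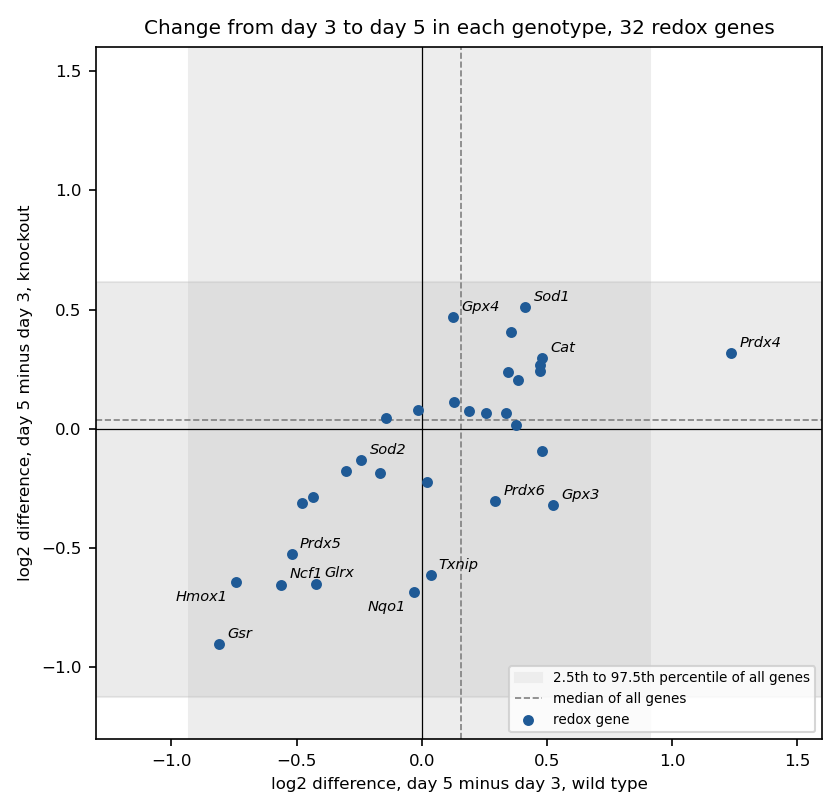
Log2 difference of RPKM + 1, day 5 minus day 3, in wild type (x axis) and in the Nfkb1 knockout (y axis) for 32 redox genes, with grey bands over the middle 95% of all genes and dashed lines at their medians (0.16 and 0.04). Prdx4 stands out in wild type (1.24) but not in the knockout (0.32), and Gsr, Hmox1, Ncf1 and Prdx5 lie low in both.

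The genotype difference was lower at day 5 than at day 3 by at least 0.5 in 6 of the 32 genes (18.8%, against 14.3% of all genes) and higher by that much in 0 (4.13% of all genes). Under either rescaling 4 were lower by that much. The change of the difference was -0.92 for Prdx4, -0.85 for Gpx3, -0.65 for Nqo1, -0.65 for Txnip, -0.60 for Prdx6 and -0.57 for Srxn1. It was 0.11 for Sod2. With 1 library per group the change of the difference was not tested.

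An additive limma fit on all 11786 genes, in which the days stand in for replicates of the genotype and leave 1 residual degree of freedom, called 0 genes (0%) at an adjusted p of 0.05, with 2278 at an unadjusted p under 0.05. Sod2 had a genotype term of 1.37 (SE 0.15) and a limma adjusted p of 0.0685, higher in both knockout libraries. Of the 32 redox genes 9 had an unadjusted limma p under 0.05: Sod2, Txnrd1, Prdx5, Prdx3, Txnrd2, Mt1, Nfe2l2, Gclc and Cybb, and all had a positive term. The share over all genes was 19.3%, and the count of redox genes ran from 7 (median ratio rescaling) to 14 (no filter) over the alternatives. Txnrd1 (0.65, SE 0.15) came next after Sod2, with a limma adjusted p of 0.132. Sod2 passed the threshold when genes were limited to a mean of at least 5 RPKM (adjusted p of 0.0438 in limma) or when limma was given an intensity trend (0.0467), and over all alternatives its adjusted p ran from 0.0438 to 0.252.

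Other genes of these pathways, 66 in 3 lists, held 3 genes lower in the knockout past the size rule at day 5 and 0 higher, where the whole table also leaned downward (3.22% of all genes lower and 1.16% higher). Of the 27 measured further thiol and peroxide enzymes, 0 passed the rule at either day, with medians of 0.23 at day 3 and 0.09 at day 5. Idh2, which supplies NADPH in mitochondria, had 41.9 (wild type) and 67.04 RPKM (knockout) on day 3, then 54.4 and 96.2 RPKM on day 5, a ratio of 1.599 (1.48 to 1.72) and 1.77 (1.66 to 1.89). Msra, a methionine sulfoxide reductase, differed by -0.31 and -0.88, and Mgst2, a microsomal glutathione transferase, by -0.56 and -0.87.

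Of the 21 measured further Nrf2 target genes, 0 passed the rule at day 3 and 2 were lower at day 5 (3.22% of all genes), with medians of 0.06 and -0.04 beside 0.13 and 0.01 for all genes. Slc40a1, the iron exporter ferroportin, had 47.2 (wild type) and 30.5 RPKM (knockout) on day 3, then 45.8 and 11.7 RPKM on day 5, a ratio of 0.646 (0.606 to 0.688) and 0.256 (0.234 to 0.280). Ephx1, an epoxide hydrolase, was level at day 3 (-0.06) and at 6.71 against 2.32 RPKM at day 5, a difference of -1.22. Above 0 at day 5 lay 10 of the 21 and below it 11, near the 51.2% and 48.8% of all genes. Of the 7 measured further oxidase genes, Hvcn1, the proton channel that balances charge during the oxidative burst, passed the rule at day 5, with 50.9 (wild type) and 22.3 RPKM (knockout), a difference of -1.16.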

How the data were processed

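Polyadenylated RNA was sequenced in 4 libraries. The mm9 build, HISAT2 and SAMtools are named per the submitters' processing notes; for counting, annotation and strand the sources used here give nothing. The authors deposited RPKM values, per the file headers, 1 column per library; column names carry each library's genotype and day. No value was 0. The steps between low values give what 1 read is worth, hence the library totals and, with the smallest length giving whole reads (tolerance 0.003 reads), the reads of each gene named. Genes without reads stand at 1 read, or 1 read was added to each gene. The length found was 0.371 to 2.60 times that of the GENCODE transcript of the same accession for the 27 members that had one (0.652 for Sod2). Where it is not the length the authors used, the reads and the width of the interval are off, and for which genes was not settled; RPKM and ratios do not depend on it.

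Differences of log2(RPKM + 1) were taken without scaling, for genes averaging 1 RPKM or more. With 1 library per group a difference at a single day has no test. The limma fit (3.58.1 in R 4.3.3; terms for genotype and for day, Benjamini-Hochberg adjusted) tests the genotype over both days with 1 residual degree of freedom and is support only. Alternatives tried were rescaling (by median ratio or to equal sums), other pseudocounts (0.1 or 5 RPKM), dropping the filter or raising it to 5 RPKM, and limma in its trend or robust form. Procedures were tested on simulated data. Members and lists were chosen with earlier results of these data known. Named genes are the members, Nfkb1, the neighbours of Sod2 and some markers. The markers named are the highest and lowest of the monocyte and macrophage list, those of it below 0 at both days, and those that show what a sum holds. Also named are further pathway genes past the size rule between genotypes or, in a list with none, with the 3 largest genotype differences of their list. Sequences and gene order come from RefSeq (GRCm38.p6); 28 of 34 members had a promoter entry.

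Marker lists of plasmacytoid dendritic cells (325, 331, 443 and 303 RPKM summed in wild type and knockout at day 3, then at day 5), B cells (352, 312, 196 and 112), T and NK cells (15.2, 3.76, 5.52 and 1.44), mast cells and basophils (159, 135, 237 and 40.6), megakaryocytes and platelets (324, 374, 784 and 360) and stromal and endothelial cells (17.8, 18.3, 29.5 and 19.3) were also summed.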

Additional observations from a re-analysis of the deposited data

Results flagged for a closer look

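In 3 redox genes the genotype difference pointed in opposite directions at the 2 days, each beyond counting error without rescaling. How many of all genes did so was not counted. Of all genes 41.2% were above 0 at both days and 23.3% below 0 at both, so a change of sign was common in the table. The change of the difference was not tested, since there was 1 library per group. Gpx3 went from 0.19 at day 3 to -0.65 at day 5, a change of -0.85. Prdx6 went from 0.44 to -0.16, a change of -0.60. Txnip went from 0.22 to -0.42, a change of -0.65. The signs were the same under both rescalings, but under the median ratio rescaling the day 3 difference was 0.03 for Gpx3 and 0.06 for Txnip, too small to set Gpx3 apart from counting error.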

How the results depend on the processing

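Sod2 stayed past the size rule at both days under all 6 alternatives of pseudocount, filter and scaling. With a pseudocount of 5 RPKM its difference was 1.19 at day 3 and 1.27 at day 5, and it was 1.15 at day 3 after the median ratio rescaling. That rescaling also moved the median of the redox genes to 0.071 for the genotypes at day 3 and to -0.039 for the days in wild type, from 0.24 and 0.13. The medians of all genes moved with it, to -0.02 and 0.009 from 0.13 and 0.16. With a pseudocount of 0.1 RPKM 1 gene, Nqo1, passed the size rule downward in the knockout at day 5 and, likewise 1 gene, between the days in the knockout. The limma fit called 20 genes and 1 redox gene at a mean of at least 5 RPKM (Sod2, adjusted p of 0.0438), 19 genes and 1 redox gene with an intensity trend (Sod2, adjusted p of 0.0467), and 4 genes with robust empirical Bayes, against 0 in the fit as reported. Among the other redox genes' genotype differences, 22 of 62 moved by more than their counting interval under the median ratio rescaling and 15 of 62 when rescaled to the same sum, and 0 under the pseudocounts and filters. Each rescaling divides all values of a library by 1 factor, so genes far above 1 RPKM shift together. Under the median ratio at day 3, Gpx1 went from 0.18 to 0.01 and Cybb from 0.35 to 0.18. The median of all genes went from 0.13 to -0.02 there. No paired analysis was possible because each group holds replicate 1 alone, so that a replicate number cannot serve as a block; the limma fit has the day as a term. Few reads limit Nqo1, Mt2, Sod3 and Txnrd2, and the single library per group limits all comparisons.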

Other observations

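The protein-coding genes on either side of Sod2 in the RefSeq gene table were Acat3, Acat2 and Wtap on one side and Gpr31b, Tcp10b and Unc93a on the other. Wtap, which lies next to Sod2 and encodes a subunit of the RNA adenosine methylation complex, had 20.1 (wild type) and 19.0 RPKM (knockout) on day 3, then 17.002 and 19.2 RPKM on day 5, a ratio of 0.945 (0.845 to 1.06) and 1.13 (1.01 to 1.27). Acat2, an acetyl-CoA acetyltransferase, had 3.03 (wild type) and 5.47 RPKM (knockout) on day 3, then 4.45 and 7.38 RPKM on day 5, a ratio of 1.80 (1.40 to 2.33) and 1.66 (1.34 to 2.05). Acat3, a gene of the same family, had 14.3 and 19.7 RPKM, then 17.6 and 28.1 RPKM, a ratio of 1.37 (1.21 to 1.56) and 1.59 (1.43 to 1.77). Reads that Acat2 and Acat3 share by sequence may be split between them. Gpr31b, Tcp10b and Unc93a had 9 reads or fewer in each library. The genotype ratio of Sod2, 2.55 and 2.77, was above that of each neighbour with more than 9 reads.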
